A study of Rattus norvegicus with 12 samples.

Results

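The 9 genes listed for the MEF2, SRF and myocardin group of muscle factors were Mef2a, Mef2c, Mef2d, Srf, Myocd, Mkl1, Mkl2, Smyd1 and Prox1. They were listed by name and taken from the arrays by the platform's gene symbol. Of these 9 genes, 6 were measured, each by 1 probe set, among 14506 genes in all: Myocd (probe set 10743652), Srf (10921550), Mef2d (10816470), Mef2a (10940630), Smyd1 (10863104) and Prox1 (10770680). Mef2c, Mkl1 and Mkl2 (now Mrtfa and Mrtfb) had no probe set named for them alone and were not analysed here.

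SRF and the MEF2 proteins are MADS-box transcription factors that bind A/T-rich elements, the CArG box and the MEF2 site, in the control regions of muscle genes. Myocardin and the related MRTF proteins do not bind these elements themselves but join SRF on DNA and raise transcription, myocardin in heart and smooth muscle, the MRTFs when actin polymerises. Smyd1 is a muscle-restricted methyltransferase needed for sarcomere assembly, and Prox1 is a homeobox factor that marks lymphatic endothelium and is also needed for the ordered sarcomeres of the heart. p300, encoded by Ep300, is an acetyltransferase that serves MEF2, SRF and myocardin as a coactivator.

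The cells were primary cardiac myocytes from neonatal Sprague Dawley rats, in 4 groups of 3 arrays. The groups were p300 siRNA with 8 h of doxorubicin, p300 siRNA at 0 h, and the same with non-silencing (NS) siRNA. The array titles number biological replicates 1 to 3 in each group. Arrays sharing a number are taken below as 1 experiment, which the titles do not state. Doxorubicin (Dox), an anthracycline that damages DNA and is toxic to the heart, was given at 1 µM. All 4 groups shared bromodeoxyuridine against fibroblasts, siRNA transfection and 48 h without serum, and the labels give over 90% myocytes. No 8 h culture without the drug was analysed here, so Dox and 8 h of culture cannot be told apart. Values are RMA intensities on Affymetrix whole-transcript arrays, given below as log2, so a difference of 1 is a doubling. A gene passed the test, or was called, where its p from limma, adjusted over all 14506 genes, was under 0.05, and the blocked fit is the same model with the experiment as a further term. As the RNA is from whole cultures, fewer cells of a type and less RNA per cell cannot be told apart.

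All 10 cardiac myocyte markers lay among the brightest 25% of genes. None of them passed the test with Dox, where 31.4% of all genes passed in p300 siRNA cells and 27.5% in NS cells. In the blocked fit 3 were higher and 1 lower in p300 siRNA cells, where 45.8% of all genes passed. In NS cells 1 was higher in that fit, where 43.5% of all genes passed. Ep300, the siRNA's target, stood at 10.10, 9.64 and 9.80 in experiments 1 to 3 in p300 siRNA cells at 8 h, against 10.86, 10.72 and 10.72 in NS cells at 8 h. At 0 h it stood at 10.41, 10.02 and 10.05 in p300 siRNA cells, against 11.16, 11.01 and 11.14 in NS cells. It was lower by the siRNA in every experiment, at 52.9% of NS at 8 h (adjusted p = 0.0271) and 51.9% at 0 h (adjusted p = 0.0404). The values moved little when an array or an experiment was left out, between -1.05 and -0.82 at 8 h, while the adjusted p reached 0.970 at 8 h and 1.0 at 0 h without experiment 2, and averaged over both times the difference was -0.93 (adjusted p = 0.00212, with 0.348 without experiment 2 and 0.168 without experiment 3).

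The sequences of the promoters show which of these genes carry the elements that SRF and MEF2 bind. RefSeq promoter entries (assembly GRCr8) were found for Srf, Mef2a, Mef2d and Smyd1 among the measured genes. A CArG box was found in 1.64% of the 33469 promoter windows of 300 bases, and a MEF2 site in 3.29%, both motifs being read the same on either strand. The 2 sequences that hold one are given here as the 120 bases before the transcription start, 5′ to 3′ on the gene's strand, with the elements in capitals. That of Srf lies at chr9:21923956-21924075 on the plus strand and that of Mef2a at chr1:130392163-130392282 on the minus strand.
Srf: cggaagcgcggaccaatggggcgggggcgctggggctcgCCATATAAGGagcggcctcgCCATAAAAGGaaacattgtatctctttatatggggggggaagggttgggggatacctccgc
Mef2a: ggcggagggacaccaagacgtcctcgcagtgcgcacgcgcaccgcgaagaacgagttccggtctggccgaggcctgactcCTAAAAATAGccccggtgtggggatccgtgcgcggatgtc
Srf thus holds 2 CArG boxes, the element its own protein binds, starting 81 and 61 bases before the start. Mef2a holds 1 MEF2 site, the element of its own family, starting 40 bases before the start. The windows of Mef2d and Smyd1 hold neither set of letters.

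After 8 h of Dox, Myocd, Prox1 and Mef2d were lower than at 0 h in both siRNA groups, Srf was lower in p300 siRNA cells and narrowly missed the threshold in NS cells, and Mef2a and Smyd1 did not pass the test. In p300 siRNA cells 4 of the 6 genes passed, all of them downward, where 31.4% of all genes passed, 17.5% downward and 13.9% upward. In NS cells 3 of 6 passed, all downward, where 27.5% of all genes passed, 16.4% downward and 11.1% upward. The median change of the 6 genes was -0.56 in p300 siRNA cells and -0.39 in NS cells, against a median over all genes of 0.04 in both. In each siRNA group the 8 h and 0 h arrays did not overlap for 4 of the 6 genes, where 43.2% of all genes did not overlap in p300 siRNA cells and 41.3% in NS cells.

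**Figure D1:**
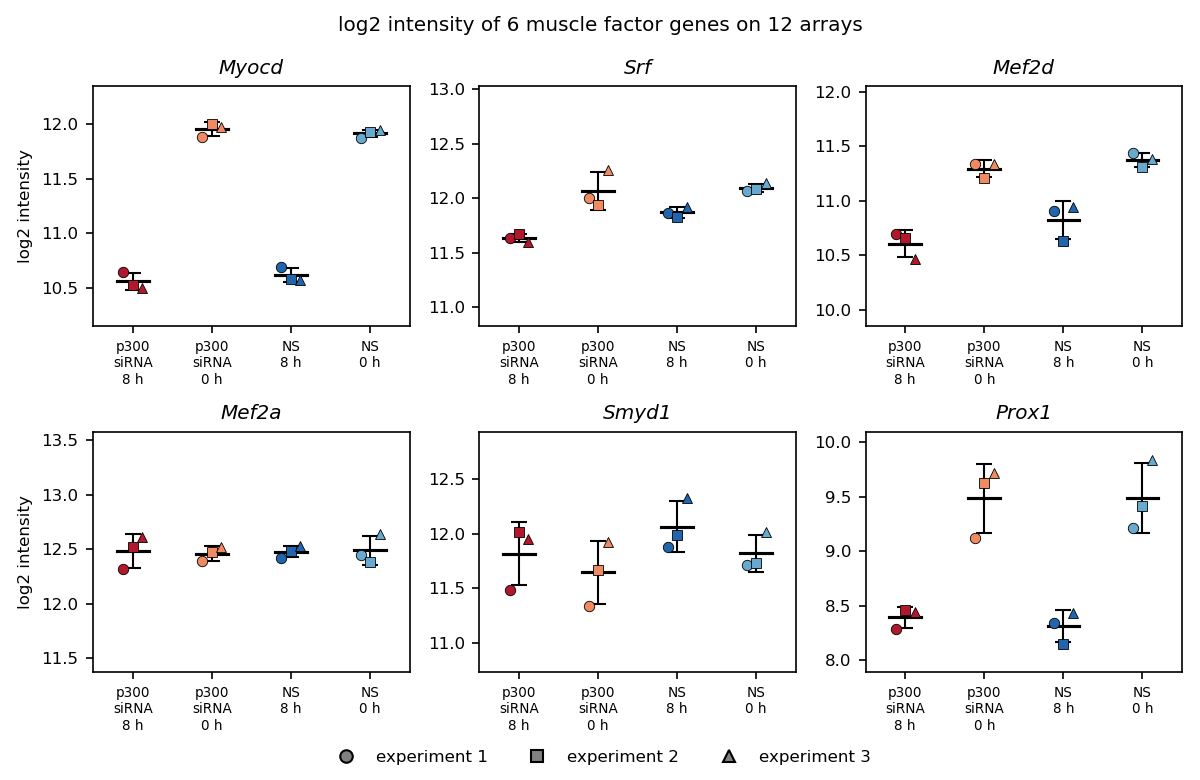
Each panel plots the log2 intensity of 1 gene on the 12 arrays, with points for arrays, marker shapes for the 3 experiments, bars for the group mean and whiskers for the SD (n = 3); all panels span the same log2 range. The means of Myocd and Prox1 at 8 h and 0 h lie more than 1 log2 unit apart, those of Mef2d and Srf less, and the Smyd1 and Mef2a groups overlap.

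Myocd, the SRF coactivator, changed most. It stood at 10.65, 10.53 and 10.50 in p300 siRNA cells at 8 h, against 11.884, 12.004 and 11.976 at 0 h. In NS cells it stood at 10.69, 10.58 and 10.57 at 8 h, against 11.88, 11.93 and 11.95 at 0 h. The 8 h arrays lay more than 1 log2 unit below every 0 h array, and within a group the 3 experiments spanned at most 0.15. Relative to 0 h, Myocd was 2.63-fold lower with p300 siRNA, a log2 change of -1.40 (SE 0.0697, limma adjusted p = 1.51e-07). With NS siRNA it was 2.46-fold lower, a log2 change of -1.30 (SE 0.0697, adjusted p = 2.63e-07). Of the 14506 genes, 58 had a more negative change in p300 siRNA cells and 67 in NS cells. Dox and time took 99.3% of its sum of squares over the 12 arrays, and the experiments took 0.0259%.

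Srf, the DNA-binding partner of myocardin, moved the same way by less. It stood at 11.64, 11.67 and 11.60 in p300 siRNA cells at 8 h, against 12.001, 11.937 and 12.262 at 0 h. In NS cells it stood at 11.87, 11.83 and 11.92 at 8 h, against 12.06, 12.08 and 12.14 at 0 h. Neither pair of groups overlapped, and p300 siRNA cells at 8 h were the lowest of the 4 groups. With p300 siRNA, Srf was 1.35-fold lower at 8 h, a log2 change of -0.43 (SE 0.0787, adjusted p = 0.00121). With NS siRNA the change was -0.22 (SE 0.0787, 95% interval -0.40 to -0.05), which did not pass the test (adjusted p = 0.0502) but passed once the experiments were blocked (adjusted p = 0.00731). Over 24 alternative settings the adjusted p of that change lay between 0.00731 and 0.235, and 8 of them passed.

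Mef2d, a MEF2 factor that recruits class II histone deacetylases or p300 depending on signals, lay between these. It stood at 10.70, 10.65 and 10.47 in p300 siRNA cells at 8 h, against 11.34, 11.21 and 11.34 at 0 h. In NS cells it stood at 10.91, 10.63 and 10.94 at 8 h, against 11.44, 11.31 and 11.38 at 0 h. All 6 arrays at 8 h lay below all 6 at 0 h. The fall of Mef2d was 1.61-fold with p300 siRNA (log2 change -0.69, SE 0.0964, adjusted p = 1.80e-04) and 1.47-fold with NS siRNA (log2 change -0.55, SE 0.0964, adjusted p = 0.00105).

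Mef2a, the second MEF2 factor on the arrays, kept nearly one level. It averaged 12.48 ± 0.15 in p300 siRNA cells at 8 h and 12.46 ± 0.07 at 0 h (SD, n = 3 each). In NS cells it averaged 12.48 ± 0.05 at 8 h and 12.49 ± 0.13 at 0 h. The groups overlapped, and the changes were 0.02 in p300 siRNA cells (95% interval -0.16 to 0.21, adjusted p = 0.866) and -0.01 in NS cells (95% interval -0.20 to 0.17, adjusted p = 0.927). These intervals leave out the size of the Mef2d changes. The experiments took 69.1% of the sum of squares of Mef2a, and Dox and time took 0.0691%, of a total spread (SD) of 0.09 over the 12 arrays.

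Smyd1, the muscle methyltransferase, differed more between experiments than between groups. It stood at 11.48, 12.01 and 11.95 in p300 siRNA cells at 8 h, against 11.34, 11.67 and 11.92 at 0 h. In NS cells it stood at 11.88, 11.98 and 12.33 at 8 h, against 11.71, 11.73 and 12.01 at 0 h. The groups overlapped, although in all 6 pairs of the same experiment and siRNA the 8 h array was the higher. The change was 0.17 with p300 siRNA (SE 0.171, adjusted p = 0.481) and 0.24 with NS siRNA (SE 0.171, adjusted p = 0.325). The NS change passed under 1 of 24 alternatives only, the blocked fit (adjusted p = 0.0207, against 0.108 with the experiment as a random effect), and the p300 siRNA change did not pass there (adjusted p = 0.0902). The blocked fit brought the count in NS cells to 5 genes, 4 lower and 1 higher, where 43.5% of all genes passed, 21.9% lower and 21.6% higher.

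Prox1, the homeobox factor, fell nearly as far as Myocd. It stood at 8.29, 8.46 and 8.44 in p300 siRNA cells at 8 h, against 9.12, 9.62 and 9.72 at 0 h. In NS cells it stood at 8.35, 8.15 and 8.44 at 8 h, against 9.21, 9.41 and 9.84 at 0 h. The groups did not overlap, and the 0 h arrays spread over about 0.6, mostly by experiment. The fall of Prox1 was 2.13-fold with p300 siRNA (log2 change -1.09, SE 0.171, adjusted p = 4.00e-04) and 2.26-fold with NS siRNA (log2 change -1.18, SE 0.171, adjusted p = 2.76e-04). In experiment 1 the changes were -0.83 in p300 siRNA cells and -0.86 in NS cells, the smallest of the 3 experiments in each.

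**Figure D2:**
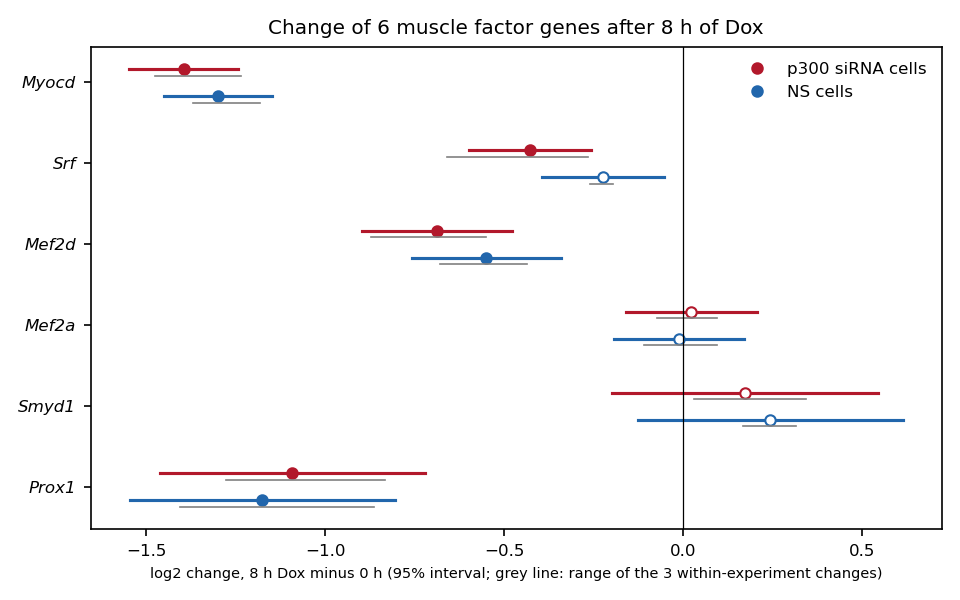
Points are the log2 change at 8 h of Dox minus 0 h for each gene, red for p300 siRNA cells and blue for NS cells, with 95% intervals; filled points passed the test at the adjusted threshold, and the grey lines span the 3 within-experiment changes. Myocd lies at -1.40 and -1.30, Prox1 at -1.09 and -1.18 and Mef2d at -0.69 and -0.55, while the intervals of Mef2a and Smyd1 cross 0.

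Prox1 and Myocd are also made by other cells of a heart, so the markers of those cells stand beside them. The 4 measured lymphatic endothelial markers (Lyve1, Pdpn, Flt4 and Reln) had a median change of 0.27 in p300 siRNA cells and 0.20 in NS cells with Dox, and 1 of them, Pdpn, rose (0.35 in p300 siRNA cells and 0.28 in NS cells). Flt4 was at 0.23 and 0.22, Reln at 0.30 and 0.19 and Lyve1 at 0.05 and 0.07, none of which passed without the block. In the blocked fit 2 of the 4, Pdpn and Reln, rose in p300 siRNA cells, where 45.8% of all genes passed. In NS cells 1 rose in that fit, Pdpn, where 43.5% passed. The summed linear intensity of the 4 was 4450 to 4518 in p300 siRNA cells at 8 h, against 3512 to 3632 at 0 h, and 4753 to 5192 in NS cells at 8 h, against 3937 to 4409 at 0 h. Pdpn, the 1 of the 4 among the brightest 25% of genes, made up 75.7% to 82.9% of that sum on every array, so the sum mostly follows Pdpn, and its part in the Prox1 result was not tested. Of 9 smooth muscle and pericyte markers, 3 fell in each siRNA group (Smtn, Pdgfrb and Cspg4), with medians of 0.01 and 0.02. Of all genes 31.4% passed with Dox in p300 siRNA cells (17.5% lower and 13.9% higher) and 27.5% in NS cells (16.4% lower and 11.1% higher). In the blocked fit 4 of the 9 fell and 2 rose in p300 siRNA cells, where 45.8% of all genes passed. In NS cells 3 fell and 2 rose in that fit, where 43.5% passed. The risers were Rgs5 (0.652 and 0.435) and Myh11 (0.29 and 0.28), named after their values were seen. The sums of the 9 markers overlapped, at 48010 to 61400 at 8 h and 53900 to 63160 at 0 h in p300 siRNA cells, and at 50250 to 59580 at 8 h and 50620 to 61810 at 0 h in NS cells.

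Without the block, no p300 siRNA difference passed among these genes. At 8 h none of the 6 passed, where 0.0483% of all genes did, and at 0 h none passed, where 0.0207% did. Averaged over both times none passed, where 1.25% of all genes did. Without adjustment for the number of genes, the 95% intervals of Srf and Mef2d at 8 h lay below 0. So did their intervals averaged over both times (-0.252 to -0.011 for Srf and -0.298 to -0.003 for Mef2d). Srf was lower by 0.15 to 0.32 within each experiment at 8 h (difference -0.23, 95% interval -0.40 to -0.06, adjusted p = 0.432, and 0.0519 in the blocked fit). It was the only 1 of the 6 whose 2 siRNA groups did not overlap at 8 h, where 11.1% of all genes did not overlap. At 0 h no gene of the 6 was free of overlap, where 13.0% of all genes were, and the difference of Srf was -0.03 (95% interval -0.20 to 0.14).

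Mef2d differed by -0.22 at 8 h (95% interval -0.43 to -0.01, adjusted p = 0.602) and by -0.08 at 0 h (95% interval -0.29 to 0.13, adjusted p = 0.989). Its 8 h difference was -0.48 in experiment 3, -0.21 in experiment 1 and 0.03 in experiment 2, so 1 experiment carried much of it. Smyd1 differed by -0.25 at 8 h (95% interval -0.618 to 0.124) and -0.18 at 0 h (95% interval -0.547 to 0.195). Averaged over both times it differed by -0.21 (SE 0.121, adjusted p = 0.527). The blocked fit brought that average past the threshold (adjusted p = 0.0268), the only call among the 6 genes, where 9.51% of all genes passed in that fit and 6.29% were lower. It was below 0 in experiments 1 and 3 at both times, and in experiment 2 it was 0.03 at 8 h and -0.06 at 0 h.

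Myocd, Mef2a and Prox1 stood close to their NS levels. Myocd differed by -0.06 at 8 h (95% interval -0.21 to 0.09) and 0.04 at 0 h (95% interval -0.11 to 0.19). Mef2a differed by 0.00 at 8 h and -0.03 at 0 h, and Prox1 by 0.08 at 8 h and 0.00 at 0 h, with intervals for Prox1 of -0.29 to 0.45 and -0.37 to 0.37. Any siRNA difference in Myocd was therefore small beside its Dox change, while that of Prox1 was bounded less tightly. With p300 siRNA the markers of macrophages and leukocytes had a median of -0.34 averaged over both times, with 2 of 8 lower, those of lymphatic endothelium -0.32 with 0 of 4, and those of fibroblasts -0.15 with 0 of 10. In the blocked fit these counts were 6, 4 and 6, all lower. The smooth muscle and pericyte markers had a median of -0.005 with 1 of 9 lower, and 2 lower and 1 higher in the blocked fit. Endothelial markers had -0.09 with 0 of 8, and 1 lower in that fit. Cardiac myocyte markers had -0.06 with 0 of 10, and 0 in that fit. Of all genes 1.25% passed without the block and 9.51% with it (6.29% lower). The part of the cells other than myocytes in the differences of Smyd1, Srf and Mef2d was not tested.

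**Figure D3:**
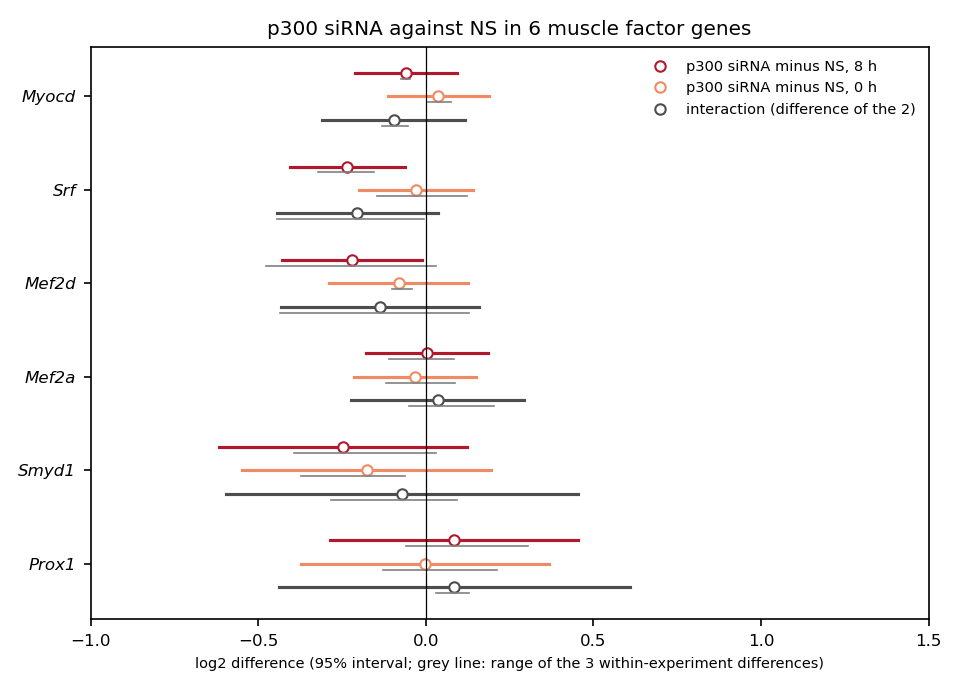
Points are p300 siRNA minus NS on the log2 scale at 8 h and at 0 h, and the difference between these 2 (the interaction), with 95% intervals and grey lines for the range over the 3 experiments; none passed the test. The Srf and Mef2d intervals at 8 h lie below 0 and every other interval crosses 0.

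Whether the siRNA changed the Dox response was tested by the interaction. With limma 0 of 14506 genes passed (0.0%), with or without blocking on the experiment, and 228 genes had an unadjusted p under 0.05 without it and 639 with it. Among the 6 genes Srf had the largest interaction, -0.20 (SE 0.111, 95% interval -0.45 to 0.04, adjusted p = 0.9998). Its values in experiments 1 to 3 were -0.16, -0.01 and -0.44, all below 0 but carried by experiment 3. The interactions of Mef2d (-0.14), Myocd (-0.10), Smyd1 (-0.07), Prox1 (0.08) and Mef2a (0.04) had intervals that also crossed 0. Srf passed with Dox in p300 siRNA cells and not in NS cells, but a difference between those 2 changes was not called.

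**Figure D4:**
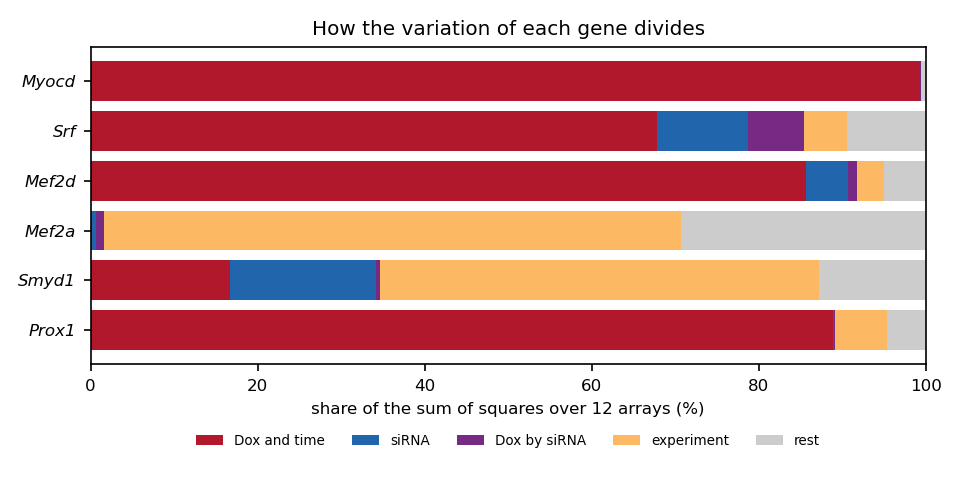
Bars divide the sum of squares of each gene over the 12 arrays into Dox and time, siRNA, their interaction, experiment and the rest, in percent. Dox and time take 99.3% for Myocd, 88.9% for Prox1, 85.7% for Mef2d and 67.8% for Srf, while the experiment takes 52.6% for Smyd1 and 69.1% for Mef2a.

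The siRNA took 10.99% of the sum of squares of Srf, 5.05% of Mef2d and 17.4% of Smyd1, and under 1% of the other 3 genes. Smyd1, Prox1 and Mef2a shared an order of experiments: experiment 1 lay lowest and experiment 3 highest, with Smyd1 at -0.23, 0.01 and 0.22 around its mean, Prox1 at -0.18, -0.01 and 0.19 and Mef2a at -0.08, -0.01 and 0.10. The experiments therefore spread Smyd1 over a wider range than either treatment did.

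Genes were compared over the 12 arrays by their root mean square difference on the log2 scale, after each was set to its own mean. Among pairs that held at least 1 of the 4 genes that fell, Mef2d and Srf differed least (0.174). Mef2a and Srf (0.211) and Myocd and Prox1 (0.220) followed. The measure is small for any pair of genes of small spread, so the value of Mef2a and Srf does not show a shared pattern. Their SDs over the 12 arrays were 0.09 and 0.21, and Mef2a did not fall. Of 7252 genes at or above the median level, the nearest to Myocd were Champ1 (0.0849), Fam222b (0.0883) and Ubox5 (0.0921). Nearest to Prox1 was Rhobtb2 (0.105), then Tbx5 (0.123), a T-box factor of the heart, and Sipa1l2 (0.127). For Mef2d they were Ripor1 (0.0754), Wasf2 (0.0869), which acts in actin assembly, and Foxk1 (0.0889), a forkhead factor. For Srf they were Tns1 (0.0533), a focal adhesion protein, Sgta (0.0548) and Gpsm1 (0.0629). All 12 of these genes were lower at 8 h of Dox in both siRNA groups, as the measure requires of a gene close to a falling one.

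The counts of the 6 lists that follow stand beside the share of all genes called for Dox: 31.4% in p300 siRNA cells (17.5% lower and 13.9% higher) and 27.5% in NS cells (16.4% lower and 11.1% higher). In the blocked fit that share was 45.8% in p300 siRNA cells (22.8% lower and 22.9% higher) and 43.5% in NS cells. With every array 4560 of all genes passed in p300 siRNA cells and 3992 in NS cells. Without experiment 2 these were 2269 and 1782, and without experiment 3 they were 2359 and 1937. Without the NS 0 h array of experiment 2, 3189 passed in NS cells. List counts that leave out arrays stand beside these lower totals. On arrays centred on their medians, 4344 genes were called higher and 1991 lower in p300 siRNA cells, and 3800 higher and 1832 lower in NS cells, so the lists are given under both settings.

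Among genes that control MEF2 activity, more fell with Dox than rose. Of 20 measured, 9 fell and 1 rose in p300 siRNA cells (10 of 20 called, median -0.12), and 10 fell and 1 rose in NS cells (11 of 20 called, median -0.16), against a median of 0.04 over all genes. The NS count was 3 without experiment 2 and 5 without experiment 3. With the block 10 fell and 3 rose in each group, and on median-centred arrays 9 fell and 3 rose with p300 siRNA and 8 fell and 5 rose with NS siRNA. The greatest fall was that of Sik1, a kinase that holds class II histone deacetylases out of the nucleus, at -1.60 with p300 siRNA (adjusted p = 1.36e-06) and -1.29 with NS siRNA (adjusted p = 7.41e-06). Dyrk1a, a kinase, fell by 0.66 and 0.65 in these groups, Map2k5, the kinase that activates Mapk7 (ERK5), by 0.61 and 0.54, and Hdac7, a MEF2-binding deacetylase, by 0.65 and 0.49. Ppp3r1, the regulatory subunit of calcineurin, rose by 0.34 in p300 siRNA cells and by 0.26 in NS cells. The calcineurin catalytic subunit Ppp3ca (0.06 in p300 siRNA cells and 0.02 in NS cells) and the kinase Camk2d (0.17 and 0.12) did not pass. The calls of Sik1 and Dyrk1a held under all 24 alternatives, whereas Hdac7 lost its call in p300 siRNA cells without experiment 2 (adjusted p = 0.0580) and in NS cells under 7, Map2k5 lost its call in NS cells without experiment 3 (adjusted p = 0.108), and Ppp3r1 lost its call in NS cells under 13.

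Without the block, known MEF2 targets were called about as often as all genes. Of 14 measured, a list that holds Myocd and Smyd1 themselves, 5 fell and 0 rose in each siRNA group (35.7% called), with medians of -0.05 in p300 siRNA cells and -0.15 in NS cells. The 0 depends on the fit: with the block, 5 fell and 2 rose in p300 siRNA cells and 6 fell and 3 rose in NS cells, while median-centred arrays gave 5 and 3 lower in these groups and 0 higher. The risers in the blocked fit were Hrc, a calcium-binding protein of the sarcoplasmic reticulum (0.44 and 0.46), and Ckm, muscle creatine kinase (0.31 and 0.29), with Smyd1 in NS cells, and Hrc and Ckm were named after their values were seen. Beside Myocd, those that fell without the block were Ppargc1a, a coactivator of mitochondrial genes (-1.20 in p300 siRNA cells and -1.22 in NS cells), Jun (-0.83 and -1.13), the orphan nuclear receptor Nr4a1 (-0.46 and -0.44) and Klf2, named as the remaining one of the 5 after its values were seen (-0.36 and -0.28). The structural genes Des, which encodes desmin (0.01 and 0.02), and Myl2, the ventricular myosin light chain (0.01 and -0.02), did not pass. The Jun call held under all 24 alternatives in both groups, and the Ppargc1a call was lost in both without experiment 2 (adjusted p = 0.0531 in p300 siRNA cells and 0.0626 in NS cells). Without experiment 2 the count was 3 in p300 siRNA cells and 2 in NS cells, without experiment 3 it was 3 in each, and without the NS 0 h array of experiment 2 it was 3 in NS cells.

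The genes that act on SRF and the MRTFs were called at near the share of all genes. Of 16 measured, 3 fell and 2 rose in p300 siRNA cells (31.2% called, median -0.03), and 3 fell and 3 rose in NS cells (37.5% called, median -0.02). On median-centred arrays the balance turned, with 2 lower and 6 higher in p300 siRNA cells and 2 lower and 5 higher in NS cells. With the block 6 fell and 3 rose in p300 siRNA cells, and 4 fell and 5 rose in NS cells. Fhl2, a LIM protein that binds SRF, changed by -1.02 with p300 siRNA (adjusted p = 6.54e-06) and -1.09 with NS siRNA (adjusted p = 4.77e-06). Abra, an actin-binding protein of striated muscle, fell by 0.51 and 0.60, and Phactr1, an actin and phosphatase-1 binding protein, by 0.46 and 0.47. Hopx, a homeodomain-only protein that restrains SRF, rose by 0.58 and 0.53, and Foxo4, a forkhead factor that represses myocardin activity in smooth muscle, by 0.55 and 0.49. Cfl1, cofilin, rose in NS cells by 0.22 and was at 0.07 without passing in p300 siRNA cells, a difference the interaction did not call. The actin-binding Pfn1 did not pass. Only the Fhl2 call held under all 24 alternatives in both groups: without experiment 2 the list's count was 2 in p300 siRNA cells and 1 in NS cells, and without experiment 3 it was 3 in each.

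Most immediate early targets of SRF rose after Dox, while Srf, also on this list, fell in p300 siRNA cells and did not pass in NS cells. Of 9 measured, Srf included, 5 rose and 2 fell in p300 siRNA cells (77.8% called, median 0.56), and 5 rose and 1 fell in NS cells (66.7% called, median 0.36). With the block all 9 passed in each group, 7 higher and 2 lower, and on median-centred arrays 6 were higher in each group, with 2 lower in p300 siRNA cells and 1 lower in NS cells. All 4 Egr genes, zinc finger factors of the early growth response, rose: Egr2 by 1.48 in p300 siRNA cells and 1.06 in NS cells, Egr3 by 0.97 and 0.91, Egr1 by 0.77 and 0.59, and Egr4 by 0.68 and 0.54. Fos, named as the remaining riser after its values were seen, rose by 0.56 and 0.36. Mcl1, a survival protein of the BCL2 family, fell by 0.79 in p300 siRNA cells and by 0.76 in NS cells. Junb (0.19 and 0.22) and Ier2 (0.22 and 0.20) did not pass. The calls of the 4 Egr genes and Mcl1 held under all 24 alternatives in both groups.

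The muscle and cytoskeletal targets of SRF were called at near the share of all genes. Of 26 measured, 6 fell and 0 rose in p300 siRNA cells (23.1% called, median -0.09), and 7 fell and 1 rose in NS cells (30.8% called, median -0.02). On median-centred arrays 5 fell and 3 rose with p300 siRNA and 5 fell and 2 rose with NS siRNA, and with the block 8 fell and 3 rose with p300 siRNA and 7 fell and 4 rose with NS siRNA. The falls were led by the matricellular genes Ccn2 (-1.53 in p300 siRNA cells and -1.34 in NS cells) and Ccn1 (-0.88 and -0.82) and by Tgfb1i1, a focal adhesion protein (-1.05 and -0.74), beside Fhl2, which is also on this list. The smooth muscle actin Acta2 (-0.11 and -0.07) and the cardiac actin Actc1 (-0.04 and 0.00) did not pass. Myl9, a smooth muscle myosin light chain, rose by 0.25 in NS cells, a call lost without experiment 2 or experiment 3. In p300 siRNA cells it was at 0.16, which passed only in the blocked fit among these 2 fits (limma adjusted p = 0.0133). The interaction did not call a difference between the 2 groups. Without experiment 2 the count in NS cells was 3 of 26, and the Ccn1 call in NS cells was lost.

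**Figure D5:**
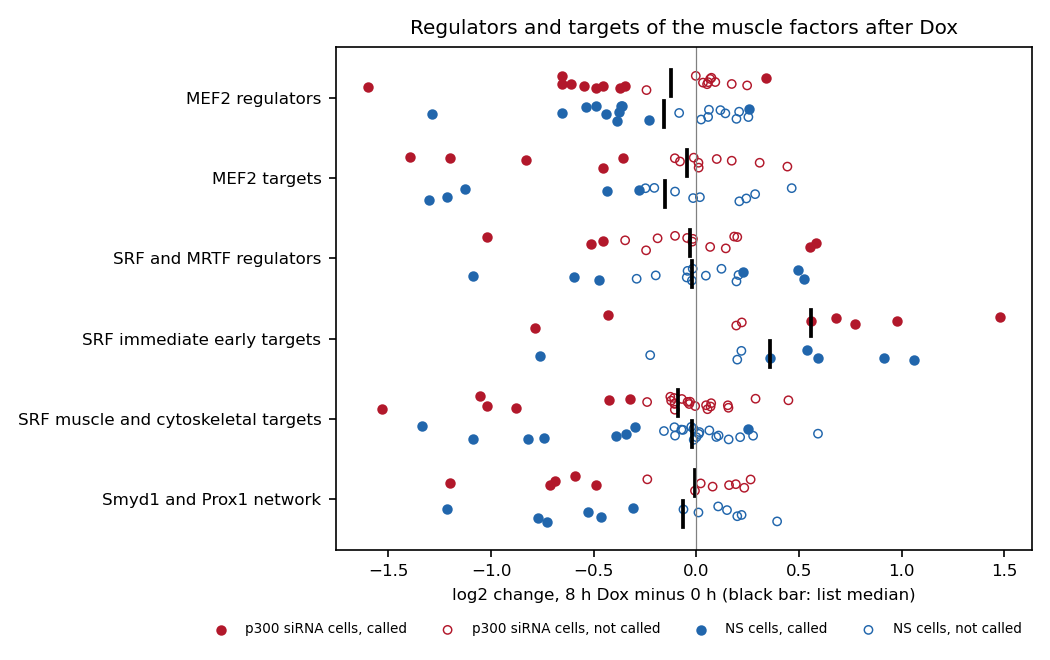
Points are the log2 change at 8 h of Dox minus 0 h of each gene in the 6 lists of regulators and targets, red for p300 siRNA cells above blue for NS cells, filled where the gene passed the test; black bars are list medians and the vertical spread within a row carries no value. The bars of the immediate early targets lie at 0.56 and 0.36, and those of the other lists between -0.16 and 0.00.

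Genes on both sides carried CArG boxes in their promoter windows, as the following sites of 30 bases show, with the box in capitals and each read on its gene's strand (GRCr8). They are the boxes of Egr2 (chr20:21054505-21054534, minus) and of Egr1 (the pair chr18:26736963-26736992 and chr18:26736985-26737014, plus), which rose, of Fhl2 (chr9:52954616-52954645 and, at its other start, chr9:52923365-52923394, minus) and Actg1 (chr10:106121022-106121051, minus), which fell, and of Actc1 (chr3:121271806-121271835, minus), Acta1 (chr19:68784269-68784298, minus) and Fhl1 (chrX:139638384-139638413, plus), which did not pass.
Egr2: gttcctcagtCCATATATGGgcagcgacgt
Egr1, distal: gtcggtccttCCATATTAGGgcttcctgct
Egr1, proximal: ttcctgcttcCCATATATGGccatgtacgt
Fhl2, first start: catttagagaCCAAAAATGGcttgcaggag
Fhl2, other start: gcgcgtgtgtCCTTATATGGtcaaatgact
Actg1: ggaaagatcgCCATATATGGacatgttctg
Actc1: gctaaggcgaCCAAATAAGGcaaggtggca
Acta1: tgcccaacacCCAAATATGGcttgggaagg
Fhl1: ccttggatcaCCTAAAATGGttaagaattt
The same 10 letters thus stood before Egr2 and Egr1, which rose, and before Actg1, cytoplasmic gamma actin, which changed by -0.42 in p300 siRNA cells and -0.34 in NS cells. A box was found for 3 of 7 immediate early targets with a promoter entry and for 5 of 21 muscle and cytoskeletal targets. These are counts of genes, at any of their starts, whereas the 1.64% given above counts windows. The genes were listed because they are SRF targets, so their shares of boxes are no test of enrichment. The muscle targets with a box had a median change of -0.12 in p300 siRNA cells and 0.00 in NS cells, and those without one -0.09 and -0.05. The 3 immediate early targets with a box, Srf among them, had medians of 0.77 and 0.59, and the 4 without one 0.21 and 0.21. Acta1, skeletal alpha actin, was at -0.12 and 0.01, and the LIM protein Fhl1 at -0.01 and 0.06. Among MEF2 targets 2 of 9 had a MEF2 site, Srpk3 and Xirp2, neither of which passed with Dox. Their median was -0.05 in p300 siRNA cells and -0.23 in NS cells, against 0.01 and 0.02 for the 7 without a site. Whether a box or site goes with the change was not tested. Actg1, Acta1, Fhl1, Srpk3 and Xirp2 are named here for their boxes, after their values were seen.

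Of 13 measured relatives and partners of Smyd1 and Prox1, 5 fell and 0 rose in p300 siRNA cells (38.5% called, median -0.01) and 6 fell and 0 rose in NS cells (46.2% called, median -0.06). With the block 6 fell and 2 rose in each group, and on median-centred arrays 5 fell in each, with 2 higher in p300 siRNA cells and 1 higher in NS cells. Smyd4 (-0.71 in p300 siRNA cells and -0.73 in NS cells) and Smyd5 (-0.69 and -0.46), which share the SET and MYND domains of Smyd1, were lower. Zyx, the focal adhesion protein zyxin (-0.59 and -0.53), and Hand2, a heart transcription factor (-0.49 and -0.77), were lower too, as was Ppargc1a. The sarcomere gene Actn2 (-0.01 and 0.01) and Naca (0.16 and 0.11), whose muscle form binds Smyd1, did not pass. The count was 3 without experiment 3 in p300 siRNA cells and 2 without experiment 2 in NS cells.

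In the comparison averaged over both times, 1 gene of these 6 lists passed, where 1.25% of all genes did. It was Myl9, higher by 0.20 (adjusted p = 0.0385), a call lost under 12 of 23 alternatives. In the blocked fit, where 9.51% of all genes passed, 1 MEF2 regulator was higher and 1 lower, and 2 muscle and cytoskeletal targets were higher. The MEF2 targets, the SRF and MRTF regulators and the partners of Smyd1 and Prox1 had 1 lower each, and the immediate early targets had 0 calls. At 8 h and at 0 h no gene of the 6 lists passed, where 0.0483% and 0.0207% of all genes did. With the block, 2 muscle and cytoskeletal targets were higher at 0 h, where 390 of 14506 genes passed.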

How the data were processed

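Total RNA of 12 cultures was hybridised to Affymetrix arrays. Per the submitters' processing notes the authors used Affymetrix Expression Console 1.1 with RMA. The deposited values are intensity on a linear scale (8.05 to 25315), a scale judged by their range, and were converted to log2 here. Array medians were 7.73 to 7.80, and precision is limited by having 3 arrays a group (median SE of a difference between groups 0.0951). Of 29214 probe sets, 15310 had 1 gene symbol, 323 several and 13581 none; the brightest probe set of each gene gave 14506 genes, 14480 with an Entrez identifier in the GRCr8 table. Groups and replicate numbers came from the array titles. One limma 3.58.1 model in R 4.3.3 of 4 group means (lmFit, eBayes with trend, 8 residual degrees of freedom, two-sided) gave all comparisons, with Benjamini-Hochberg adjustment over all genes and a threshold of 0.05; it was tested on simulated data. Intervals are at 95%.

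Arrays with the same number deviated together. Over 18 pairs the correlation of deviations from group means had a median of 0.504 (0.172 to 0.689), against a median of -0.271 for other numbers. The deviations of the 3 arrays of a group sum to 0, so a positive value for shared numbers brings a negative one for other numbers. The -0.271 is thus no separate evidence. Each of the 12 arrays was nearest to those sharing its number, so the number was taken as the experiment. Alternatives were the replicate block, a random replicate effect, a fit to the 2 groups alone, leaving out genes with a mean log2 below 6.87, no trend, a robust fit, median-centred arrays, repeated quantile normalisation, the mean of all probe sets of a gene, and leaving out each array or experiment.

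Named genes were the listed factors and Ep300, up to 4 passing genes per direction with the largest change and 2 of the highest level that did not pass from each list, and the 3 genes nearest each factor that passed. Members and lists were chosen with earlier results of these data known. The CArG box and MEF2 site were searched as exact consensus letters in RefSeq promoter windows of 250 bases before and 50 after the start.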

Additional observations from a re-analysis of the deposited data

Results flagged for a closer look

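Myocd differed by -0.058 between p300 siRNA and NS cells at 8 h and by 0.037 at 0 h, with all 3 experiments below 0 at 8 h (-0.05, -0.06 and -0.07) and all 3 above 0 at 0 h (0.01, 0.08 and 0.03). The opposite direction of the experiments at the 2 times drew attention to this gene. The test of the difference itself, the interaction, gave -0.10 (95% interval -0.31 to 0.12, adjusted p = 0.9998) and did not pass.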

How the results depend on the processing

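The count of the 6 factors passing was 4 under all 24 alternatives for Dox in p300 siRNA cells and 0 for the siRNA at 8 h, at 0 h and for the interaction. With the replicate block it moved to 5 for Dox in NS cells, because of Srf and Smyd1. For the siRNA averaged over both times the block moved it to 1, because of Smyd1. For Dox in NS cells the count was 3 in the fit used above and 3 to 4 under the other alternatives. Srf passed there under 8 of 24 alternatives, 2 of which left out arrays. The block changed no other call among the 6. Of 852 results for single factors, 795 kept their direction and side of the threshold, 10 gained a call, 0 lost one and 47 turned direction, none of them a change that had passed. Mef2a turned to -0.057 in p300 siRNA cells with repeated quantile normalisation and to 0.089 in NS cells on median-centred arrays, where Prox1 at 0 h turned to 0.004 by siRNA; Myocd averaged over both times turned to 0.007 with repeated quantile normalisation. Leaving out 1 array or experiment spread the change of Mef2a over -0.044 to 0.106 (Dox, p300 siRNA), -0.067 to 0.061 (Dox, NS), -0.062 to 0.088 (siRNA, 8 h), -0.09 to 0.043 (siRNA, 0 h), -0.051 to 0.029 (averaged) and -0.049 to 0.119 (interaction), that of Prox1 over -0.029 to 0.154 (8 h), -0.141 to 0.181 (0 h), -0.069 to 0.132 (averaged) and -0.098 to 0.224 (interaction), and those of Srf at 0 h over -0.127 to 0.035, Myocd averaged over -0.033 to 0.009, and the interactions of Mef2d over -0.272 to 0.011 and Smyd1 over -0.223 to 0.094. The cause was not tested. Centring each array on its median moved the median Dox change of all genes to 0.14 in both siRNA groups, and it gave 4344 passing genes higher and 1991 lower in p300 siRNA cells (2017 and 2543 otherwise) and 3800 and 1832 in NS cells (1617 and 2375 otherwise); there Myocd was at -1.29 and -1.20, Prox1 at -0.99 and -1.07, Mef2d at -0.58 and -0.45, and Srf at -0.32 and -0.12. The count of all genes passing for Dox was 6639 in p300 siRNA cells and 6317 in NS cells with the block, 2269 and 1782 without experiment 2, and 2359 and 1937 without experiment 3. For the siRNA it ranged from 0 to 455 at 8 h, 0 to 390 at 0 h and 0 to 1380 averaged.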

Other observations

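Ep300 itself stood lower at 8 h of Dox than at 0 h within every experiment, by -0.31 in p300 siRNA cells (95% interval -0.59 to -0.04) and by -0.34 in NS cells (95% interval -0.61 to -0.07). Neither change passed (limma adjusted p = 0.0783 in p300 siRNA cells and 0.0641 in NS cells), and both passed once the experiments were blocked (0.00249 and 0.00153). In NS cells the 2 groups of arrays did not overlap. The siRNA's effect on Ep300 was alike in size at both times, with an interaction of 0.03 (95% interval -0.36 to 0.41).

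Among the 8 measured endothelial markers, which belong to cells of vessels, 2 fell with Dox in each siRNA group and 0 rose. Of all genes 31.4% passed in p300 siRNA cells (17.5% lower) and 27.5% in NS cells (16.4% lower). In the blocked fit 3 of the 8 fell and 0 rose in p300 siRNA cells, where 45.8% of all genes passed. In NS cells 4 fell and 1 rose in that fit, where 43.5% passed. None of the 8 lay among the brightest 25% of genes. The list's median was -0.08 in p300 siRNA cells and -0.14 in NS cells. Kdr, the receptor for VEGF, stood at -0.98 and -0.92 and Cdh5, the endothelial cadherin, at -0.27 and -0.41. The others did not pass without the block, while with it Tek was lower in both groups, and in NS cells Pecam1 was lower and Egfl7 higher. Tek stood at -0.32 and -0.35, Emcn at -0.13 and -0.04 and Pecam1 at -0.02 and -0.23. Tie1 stood at 0.01 and -0.05, Esam at 0.07 and 0.07 and Egfl7 at 0.08 and 0.22. These 8 genes are named after their values were seen. Their summed linear intensity over the list was 1748 to 1804 in p300 siRNA cells at 8 h, against 1925 to 2164 at 0 h, and 1785 to 1956 in NS cells at 8 h, against 2126 to 2239 at 0 h.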
